A study of Mus musculus with 11 samples.

Results

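Transcript levels of 7 genes that encode the translocator protein TSPO, its binding partner TSPOAP1 and proteins that work beside them at the outer mitochondrial membrane were followed in tafazzin (Taz) knockout (KO) and wild-type (WT) mouse myeloid progenitor clones. The 7 genes, Tspoap1 (also called Bzrap1), Tspo, Vdac1, Vdac2, Vdac3, Acbd3 and Stard3, were found by matching symbols to the Ensembl IDs of the count data, and all 7 of the 37583 IDs passed the filter on low counts. They were picked with the KO and WT levels of these same clones known, so their KO and WT values are given as a description; how many passed the all-gene threshold is stated beside the background only, and nothing is read from it. RNA came from 5 KO clones (3H, 3I and 4J to 4L) and 6 WT clones (1A to 1C and 2D to 2F). Every clone grew out of 1 cell of a granulocyte-monocyte progenitor (GMP) line made from C57BL/6 fetal liver of embryonic day 15.5. All lines, WT included, carried retroviral ER-Hoxb8, a hormone-dependent form of the transcription factor Hoxb8 that holds progenitors in an immature, dividing state, and were kept in 0.5 uM beta-estradiol with stem cell factor at about 50 ng/ml. The numbers in the names, 3 and 4 for KO and 1 and 2 for WT, have no meaning given in the sources used here, so clones of 1 number may or may not go back to the same culture. All p-values therefore rest on clone-to-clone spread alone.

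TSPO is a small protein of several membrane-spanning helices in the outer mitochondrial membrane that binds cholesterol and many synthetic ligands, and it is abundant in steroid-making tissue and in myeloid cells. VDAC channels are the barrel-shaped pores through which ATP, ADP and other metabolites cross the same membrane, and TSPO was first purified together with VDAC. TSPOAP1 is a large SH3-domain scaffold that was found by its binding to TSPO and is best known from presynaptic terminals. ACBD3, a Golgi acyl-CoA-binding protein, and STARD3, a sterol-transfer protein of late endosomes, have been placed on the routes that bring cholesterol to mitochondria. Tafazzin remodels cardiolipin, the signature lipid of the inner mitochondrial membrane.

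Gene counts came to 19778119 to 27431544 per clone, and the members had between 537 (Tspoap1) and 15952 (also Tspoap1) counts in a clone, so sampling noise was small for each of them. Taz averaged 3.23 ± 0.685 CPM (counts scaled to library size) in KO clones and 39.1 ± 2.54 CPM in WT clones (SD, n = 5 and 6), and its log2 fold change was -3.60 ± 0.14 (SE, adjusted p = 4.08e-07 by edgeR's quasi-likelihood test). The 9 GMP markers summed to 11663 to 19656 CPM in KO clones and 12523 to 22069 CPM in WT clones, and 0 of 9 were called by edgeR, DESeq2 or limma-voom. Mpo alone averaged 9387 CPM in KO clones and 9989 CPM in WT clones, so the sum says little of the weaker markers. The 9 log2 fold changes ran from -2.03 to 0.36, with 3 of them positive. T and NK cell markers summed to at most 0.351 CPM in KO clones and 0.922 CPM in WT clones, with Cd3e, Cd8a and Ncr1 at 0 throughout. WT 2D stood apart from the other clones by its late neutrophil genes, as given beside Tspoap1 below. In bulk RNA, fewer cells that express a gene and less RNA of it per cell cannot be told apart.

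The 3 VDAC genes are close relatives, and how far reads can tell them from each other and from their pseudogenes bears on their counts. The last 120 coding bases of each, from the GENCODE M21 transcripts of GRCm38, show this, with capitals at the 74 positions where all 3 channels have the same base.
Vdac1: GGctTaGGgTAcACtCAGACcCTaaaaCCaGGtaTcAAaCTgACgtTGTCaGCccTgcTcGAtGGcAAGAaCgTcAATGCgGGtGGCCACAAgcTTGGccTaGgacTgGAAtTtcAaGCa
Vdac2: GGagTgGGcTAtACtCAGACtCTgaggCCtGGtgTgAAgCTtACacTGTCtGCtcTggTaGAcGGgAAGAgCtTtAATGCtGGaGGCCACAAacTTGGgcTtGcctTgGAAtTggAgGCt
Vdac3: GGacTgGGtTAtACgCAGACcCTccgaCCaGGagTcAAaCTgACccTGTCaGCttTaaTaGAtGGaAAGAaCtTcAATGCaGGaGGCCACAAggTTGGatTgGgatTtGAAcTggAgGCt
Over the whole coding sequence, Vdac1 and Vdac2 were 71.8% identical, Vdac1 and Vdac3 68.4%, and Vdac2 and Vdac3 73.7%. No stretch of 50 bases was shared exactly among the 3 channels. Exact 50-base matches with pseudogenes were found instead. Of the 803 such stretches in Vdac3, 80.8% also occurred in Vdac3-ps1, Gm7591 or Gm15970. The share was 23.6% in Vdac2, with Gm7832, and 4.41% in Vdac1, with Gm15502 and Gm16102. Reads that align to several places were left out of the deposited counts, so Vdac3 above all is counted from part of its sequence and its values are uncertain. Vdac3-ps1 itself had 14 to 34 counts in KO clones and 17 to 41 in WT clones.

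The coding sequences of Tspoap1, Tspo, Acbd3 and Stard3 had no 50-base stretch in common with an annotated transcript of another gene. Untranslated parts of the members were not compared. The first 120 coding bases of the partner and of TSPO itself, a pair that bind each other as proteins, are given from the same annotation, with the start codon in capitals.
Tspoap1: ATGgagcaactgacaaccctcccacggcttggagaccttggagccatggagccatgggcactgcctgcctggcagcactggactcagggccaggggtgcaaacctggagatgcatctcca
Tspo: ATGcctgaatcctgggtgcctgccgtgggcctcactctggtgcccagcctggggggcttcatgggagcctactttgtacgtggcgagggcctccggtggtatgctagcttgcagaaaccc
The Tspoap1 coding sequence runs to 5538 bases and that of Tspo to 507. RefSeq promoter sequences were at hand for 2 members, Stard3 and Vdac1.

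Tspoap1 was the member that differed most. It had 28.8 CPM in KO 3H, 29.5 in KO 3I, 35.8 in KO 4J, 27.1 in KO 4K and 27.0 in KO 4L. The WT clones had 294 CPM in 1A, 131 in 1B, 92.9 in 1C, 689 in 2D, 51.5 in 2E and 115 in 2F. All KO clones lay below all WT clones, and the lowest WT clone, 2E, was 1.44 times the highest KO clone, 4J. The means were 29.6 ± 3.62 CPM in KO clones and 229 ± 240 CPM in WT clones (SD, n = 5 and 6), and the medians 28.8 CPM in KO clones and 123 CPM in WT clones, so that the KO median was 23.3% of the WT median. The fitted log2 fold change was -2.95 ± 0.64 (SE).

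**Figure D1:**
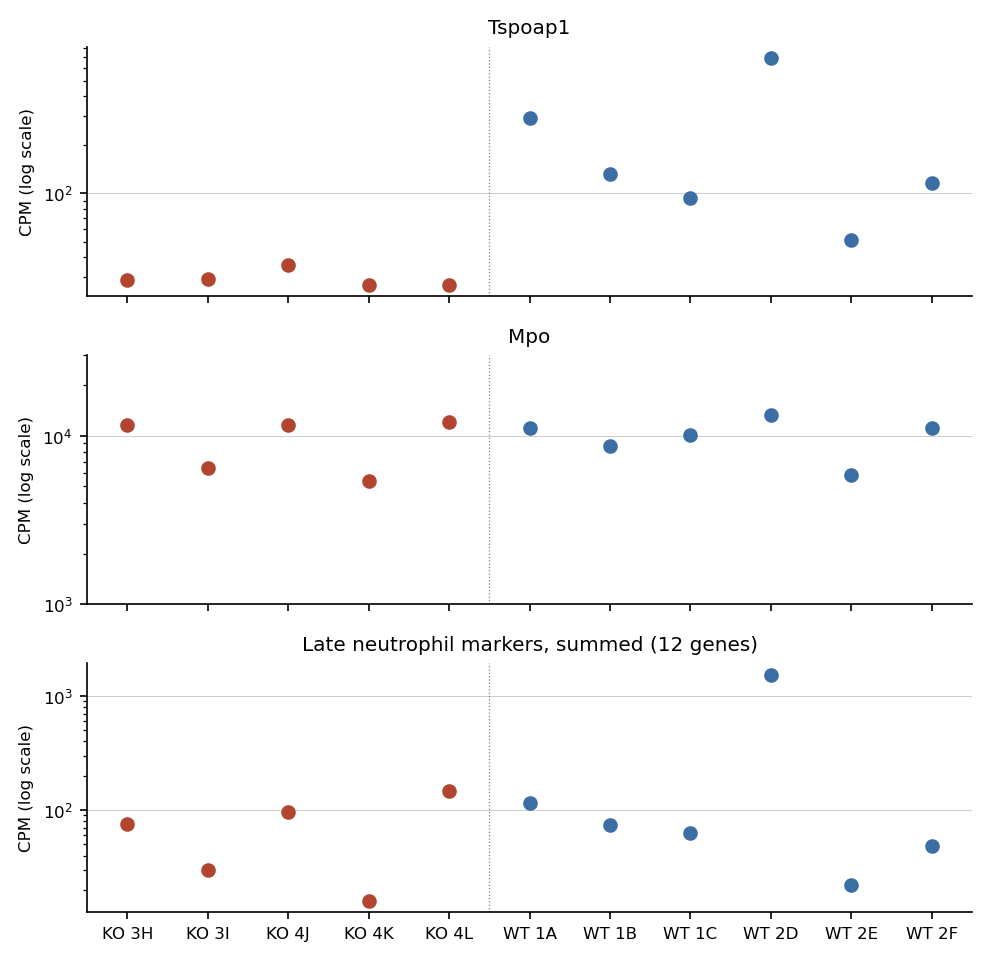
Tspoap1 (top), Mpo, its downstream neighbour (middle), and the sum of 12 late neutrophil markers (bottom) in each clone, in CPM on log axes, with the 5 KO clones left of the dotted line and the 6 WT clones right of it. Tspoap1 was between 27.0 and 35.8 CPM in every KO clone and between 51.5 and 689 CPM in WT clones, while Mpo and the neutrophil sum overlapped between genotypes and WT 2D had the highest neutrophil sum.

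The KO clones were also closer to each other than the WT clones were. They spanned 1.33-fold in Tspoap1, with an SD of 0.17 on the log2 scale, and WT clones spanned 13.4-fold, with an SD of 1.33. Among 9398 genes, 73.0% had a smaller SD than Tspoap1 in KO clones and 97.4% had a smaller one in WT clones, where 242 genes were more uneven. The size of the genotype difference moved with the WT clones that entered it. Without WT 2D the log2 fold change was -2.21 ± 0.40, and without WT 1A and 2D together, an alternative chosen after the values were seen, it was -1.72 ± 0.24. Leaving out any other single clone gave -3.16 to -2.87.

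Markers of other cell types moved with Tspoap1 in part. The late neutrophil list, 12 genes of which 7 were tested and 0 called by edgeR or limma-voom and 2 (Cxcr2 and Mmp8) by DESeq2, summed to 15.95 to 146 CPM in KO clones and 22.1 to 1546 CPM in WT clones. The upper end was WT 2D, and the next WT clone was 1A at 116 CPM, so the same pair of clones led Tspoap1 and this sum. KO 4L had a higher neutrophil sum than WT 1A, and its Tspoap1 was 27.0 CPM. The median log2 fold change of the 7 tested markers was -3.30 with WT 2D included, and 2 of them had an unadjusted p under 0.05 by edgeR. The median sum of the 12 genes was 75.2 CPM in KO clones and 68.8 CPM in WT clones, so the sum, unlike that fold change, was not lower in the median KO clone. B-lineage markers, 8 genes of which 5 were tested, summed to 6.12 to 28.5 CPM in KO clones and 32.8 to 85.6 CPM in WT clones, with no overlap. Cd79b was called lower by edgeR and DESeq2, limma-voom called 0 of the 5, and Pax5 was at 0 in all clones. Of all tested genes, 5.05% were called by edgeR and 5.99% had no overlap between genotypes. The 9 eosinophil, basophil and mast cell markers summed to 2196 to 4993 CPM in KO clones and 1279 to 4085 CPM in WT clones, with 0 of 7 tested genes called by edgeR, DESeq2 or limma-voom. Their sum was lowest in WT 2D and highest in WT 2E among WT clones, the reverse of Tspoap1, but it consists mostly of Cpa3, a mast cell protease, and the list did not move as one. Over the 11 clones the r of this sum with Tspoap1 was -0.81 after centring and -0.74 without WT 2D. Of the 7 tested genes, 5 had a positive log2 fold change, and the median was 0.17. The tested genes ran from a log2 fold change of -3.003 (Prg2, an eosinophil granule protein, edgeR adjusted p = 0.276) to 0.67 (Cpa3, edgeR adjusted p = 0.306). Epx, eosinophil peroxidase, lies 78.1 kb from Tspoap1, and too few clones had enough counts of it for a test. It had at most 0.170 CPM in KO clones, against 12.2 CPM (283 counts) in WT 2D, 6.07 CPM (158 counts) in WT 1A, 0.582 CPM in WT 1B and at most 0.166 CPM in the other WT clones. Epx was named after its values were seen. The clones with the most Epx, 2D and then 1A and 1B, were those with the most Tspoap1. Over the 11 clones the r of Epx with Tspoap1 was 0.94 after centring and 0.91 without WT 2D, with 0 to 16 Epx counts in all clones but 2D and 1A. Within WT clones alone r was 0.96, and within KO clones 0.60. Monocyte markers summed to 199 to 875 CPM in KO clones and 300.3 to 1351 CPM in WT clones. Erythroid markers summed to 131 to 245 CPM in KO clones and 75.1 to 251 CPM in WT clones. Liver and stromal markers summed to 282 to 492 CPM in KO clones and 158 to 501 CPM in WT clones. In these last 3 lists 0 genes were called by edgeR, DESeq2 or limma-voom, and 1 monocyte marker had an unadjusted p under 0.05 by edgeR. The part of these cell types in the Tspoap1 difference was not tested.

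Tspo, the receptor itself, overlapped between the genotypes. KO clones had 118, 109, 128, 113 and 132 CPM in 3H, 3I, 4J, 4K and 4L, and WT clones 121, 123, 136, 137, 123 and 127 CPM in 1A, 1B, 1C, 2D, 2E and 2F. Both groups lay close together, with KO 3I and 4K at the bottom and WT 2D and 1C at the top. The means were 120.01 ± 9.83 CPM in KO clones and 128 ± 6.91 CPM in WT clones (SD, n = 5 and 6), and the log2 fold change was -0.09 ± 0.06 (SE). In WT 2D, which had the most Tspoap1, Tspo was at 137 CPM, beside 136 CPM in WT 1C. The CPM ratio of Tspo to Tspoap1, not corrected for length, was 3.57 to 4.90 in KO clones and 0.198 to 2.38 in WT clones, without overlap. Since Tspo differed little between clones, this ratio restates the Tspoap1 levels known when the members were picked, and it is a description.

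**Figure D2:**
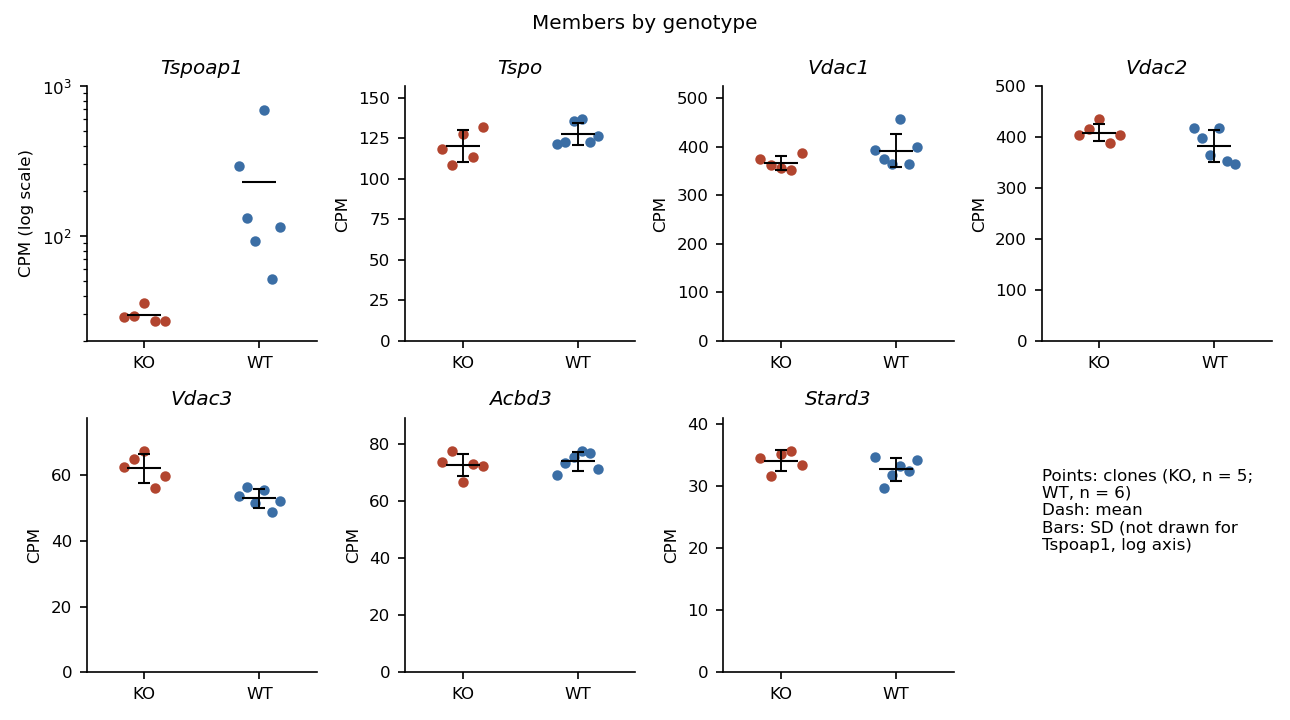
CPM of the 7 members in the 5 KO clones (left in each panel) and the 6 WT clones (right), with the mean as a dash and the SD as bars; the Tspoap1 panel has a log axis and no SD bars. Only in the Tspoap1 panel do the 2 groups stand clear of each other, and in the Vdac3 panel a single KO clone, 4K at 55.9 CPM, falls below the highest WT clone at 56.2 CPM.

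Vdac1 and Vdac2, general pores for metabolites, had the highest levels per length of the members. Vdac1 had 353 to 387 CPM in KO clones, with a median of 363, and 364 to 457 CPM in WT clones, with a median of 385. The groups overlapped, and WT 2D was the highest clone, well above WT 2F at 400.2 CPM. Its log2 fold change was -0.10 ± 0.06, and -0.05 without WT 2D. Vdac2, which keeps the cell-death protein BAK in check, had 388 to 435 CPM in KO clones, with a median of 404, and 348 to 418 CPM in WT clones, with a median of 381. Its groups overlapped as well, and its log2 fold change was 0.09 ± 0.06.

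Vdac3, a channel whose cysteines are open to oxidation, overlapped between the genotypes only through KO 4K. It had 62.2, 64.8, 67.3, 55.9 and 59.7 CPM in KO 3H, 3I, 4J, 4K and 4L, and 53.6, 56.2, 51.4, 55.5, 48.6 and 51.9 CPM in WT 1A, 1B, 1C, 2D, 2E and 2F. All KO clones but 4K were above all WT clones, and KO 4K lay just under WT 1B. The means were 62.0 ± 4.41 CPM in KO clones and 52.9 ± 2.83 CPM in WT clones (SD, n = 5 and 6), a log2 fold change of 0.23 ± 0.05 (SE). These values carry the uncertainty from the pseudogene copies described above.

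The summed level of the channels overlapped between the genotypes, and the share of Vdac3 in it did not. The 3 channels summed to 838 ± 24.0 CPM in KO clones and 828 ± 61.1 CPM in WT clones. Vdac3 made up 7.02 to 7.84% of this sum in KO clones and 5.97 to 6.78% in WT clones, with no overlap. Vdac1 made up 43.8 ± 1.56% in KO clones and 47.4 ± 1.93% in WT clones, and Vdac2 48.8 ± 1.25% in KO clones and 46.2 ± 1.84% in WT clones, both with overlap. The shares add up to the whole, so a lower share of one channel and a higher share of another are the same observation. The ratio of Vdac3 to Vdac1 was at least 0.154 in KO clones and at most 0.150 in WT clones. Shares and ratio restate the KO and WT levels known when the members were picked, so they are a description. They also carry the uncertainty of the Vdac3 counts from its pseudogene copies.

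**Figure D3:**
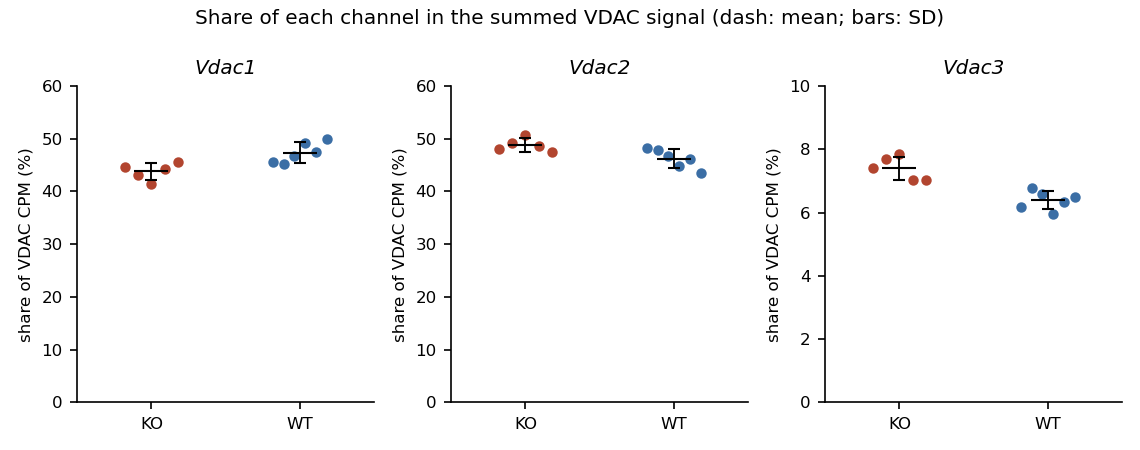
Share of each channel in the summed CPM of the 3 VDAC genes, in percent, for 5 KO clones (left) and 6 WT clones (right), with mean and SD. The Vdac3 shares lie between 7.02 and 7.84% in KO clones, above all WT clones, and the other panels overlap.

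Acbd3 and Stard3 overlapped between the genotypes too. Acbd3 had 66.8 to 77.7 CPM in KO clones, with a median of 73.0, and 69.3 to 77.7 CPM in WT clones, with a median of 74.4. Stard3 had 31.6 to 35.7 CPM in KO clones, with a median of 34.6, and 29.7 to 34.7 CPM in WT clones, with a median of 32.9. Both pairs of ranges overlapped over most of their width. The log2 fold changes were -0.03 ± 0.04 for Acbd3 and 0.06 ± 0.05 for Stard3.

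Set against transcript length, as CPM per kb of the longest coding transcript, the order of the members was Vdac2, Vdac1, Tspo, Vdac3, Acbd3, Stard3 and Tspoap1 in KO clones. The levels there were 209 ± 8.92, 181 ± 7.03, 143 ± 11.7, 43.6 ± 3.10, 20.9 ± 1.13, 16.5 ± 0.795 and 3.89 ± 0.475 CPM per kb (SD, n = 5), and each neighbouring pair in that order differed by more than its SDs. In WT clones Tspoap1 stood at 30.1 ± 31.5 CPM per kb, between Vdac3 at 37.1 ± 1.99 and Acbd3 at 21.3 ± 0.942, but its SD covered both neighbours and this place rested on WT 2D. Without that clone its WT mean was 17.99 ± 12.2 CPM per kb (SD, n = 5), and the WT median with it was 16.2, both below Acbd3. Vdac2 at 196 ± 16.3 and Vdac1 at 194 ± 17.3 CPM per kb did not differ beyond their spread in WT clones, and Tspo was at 152 ± 8.25 and Stard3 at 15.8 ± 0.876 CPM per kb.

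Of the 7 members, 2 passed an adjusted p under 0.05 in the fit over all genes, Vdac3 as higher and Tspoap1 as lower in KO clones. In the same fit 601 of 11900 tested genes passed, which is 5.05%, with 2.76% higher and 2.29% lower in KO clones. One member, Tspoap1, had no overlap between genotypes, against 5.99% of tested genes. The Tspoap1 call was lost without WT 1A or any 1 KO clone, and the Vdac3 call without any 1 clone other than WT 2D and KO 4K. Nothing is read from these counts, since the members were picked on this contrast. The median log2 fold change was -0.03 over the members and -0.01 over all tested genes, and the median absolute value was 0.10 over the members and 0.11 over all tested genes.

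**Figure D4:**
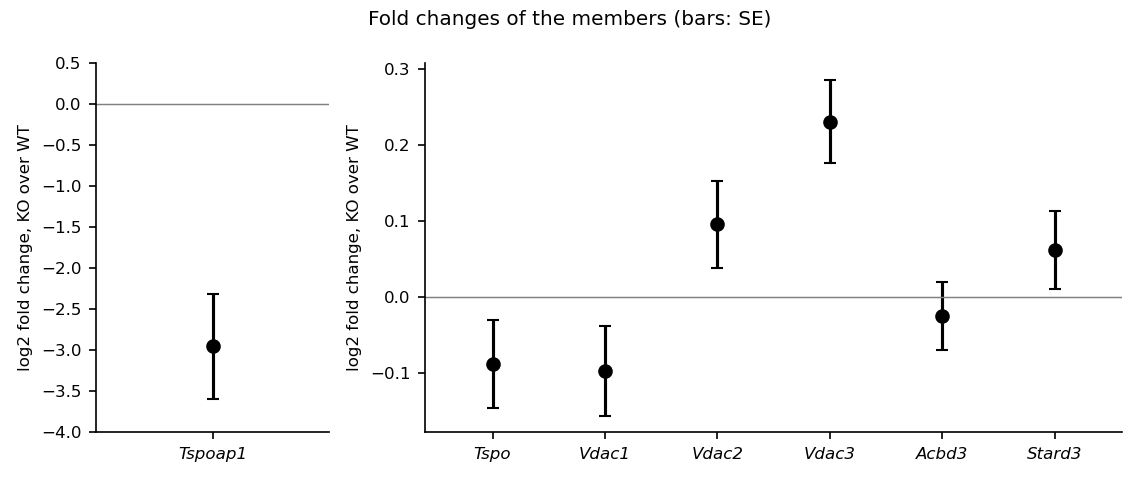
Log2 fold change of each member, KO over WT, with SE bars, on separate axes for Tspoap1 (left) and the other 6 members (right). Tspoap1 lies at -2.95, while the others lie between -0.10 and 0.23.

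The contrasts between clone numbers inside a genotype did not enter the choice of members and were tested with edgeR's quasi-likelihood test. Between numbers 2 and 1 in WT clones, Tspoap1 differed by a log2 value of 0.72 ± 0.83 (SE), with an unadjusted p of 0.406 and an adjusted p of 0.9997. This value turned to -1.05 without WT 2D. Between numbers 4 and 3 in KO clones it differed by 0.04 ± 0.95, with an adjusted p of 0.999987. The other 6 members differed by -0.08 to 0.11 in WT clones and by -0.10 to 0.14 in KO clones, with the same adjusted p in each contrast, and Tspo in KO clones had the largest of these at 0.14 ± 0.09. No member was called in either contrast, beside 0 of 11900 genes, or 0%, in each. At the same adjusted threshold limma-voom called 0 in each contrast, and DESeq2 12 in WT clones and 6 in KO clones. At an unadjusted p under 0.05 edgeR listed 372 genes in WT clones and 161 in KO clones, DESeq2 443 and 181 in WT and KO clones, and limma-voom 395 and 174 in WT and KO clones.

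From clone to clone, after the genotype means were taken out, Tspoap1 on the log2 scale went with Vdac2 at r = 0.80 and with Vdac1 at r = 0.81 over the 11 clones, which share their depth scaling. The value for Vdac1 rested on WT 2D, without which it was 0.46, while Vdac2 kept 0.79. Tspoap1 varied far less among KO clones than among WT clones, so both values rest mostly on WT clones. Within WT clones r was 0.90 for Vdac1 and 0.84 for Vdac2. Within KO clones it was -0.44 for Vdac1 and 0.92 for Vdac2. Tspoap1 and Tspo had r = 0.23, and -0.11 without WT 2D. These are descriptions of the clones and were not tested.

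The genes whose clone pattern was most like that of Tspoap1, by the same r among 9297 genes of at least 5 CPM, were U2af2, a splicing factor (0.99), Mrps26, of the mitochondrial ribosome (0.98), Cdc23, of the anaphase-promoting complex (0.98), Agpat1, which makes phosphatidic acid (0.98), and Ywhae, a 14-3-3 protein (0.96). Without WT 2D their r was between 0.91 and 0.98, but 2 of the 5 were then still among the 5 most alike, and Ywhae ranked 36. Since Tspoap1 varied far less among KO clones than among WT clones, these r too rest mostly on WT clones. The genes most like Tspo were Cerk, ceramide kinase (0.87), Hemk1, a methyltransferase (0.85), Mboat1, a lysophospholipid acyltransferase (0.85), Gk, glycerol kinase (0.83), and Rab44 (0.83), with values between 0.81 and 0.87 without WT 2D. None of these 5 was then still among the 5 most alike to Tspo, their ranks being 9 to 24, so the choice of names rested on that clone. With Spearman's rho in place of Pearson's r, 2 of the 5 names were shared for Tspoap1 and 1 for Tspo, and without centring 0 and 2 for Tspoap1 and Tspo.

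Because reads were counted without regard to strand, genes beside the members were examined. In GRCm38 gene order Tspoap1 lies between Mir142hg, the host transcript of miR-142, 3.27 kb upstream, and Mpo, the gene of the granule enzyme myeloperoxidase, 7.65 kb downstream. Mpo averaged 9387 ± 3240 CPM in KO clones and 9989 ± 2517 CPM in WT clones (SD, n = 5 and 6), a log2 fold change of -0.09 ± 0.26 with an adjusted p of 0.886 by edgeR. Mir142hg was at 3.54 ± 0.657 CPM in KO clones and 2.97 ± 0.951 CPM in WT clones, a log2 fold change of 0.25 ± 0.23 with an adjusted p of 0.579. Neither was called. Of the 24 genes annotated within 250 kb of Tspoap1, 21 were in the counts, 9 were tested and 0 were called by edgeR or limma-voom and 1 (Mtmr4) by DESeq2, with edgeR log2 fold changes of -0.90 to 0.25, a lowest adjusted p of 0.0926 (Mtmr4) and 2 unadjusted p values under 0.05. Over all tested genes edgeR called 5.05%, so few calls were to be looked for among 9 genes.

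**Figure D5:**
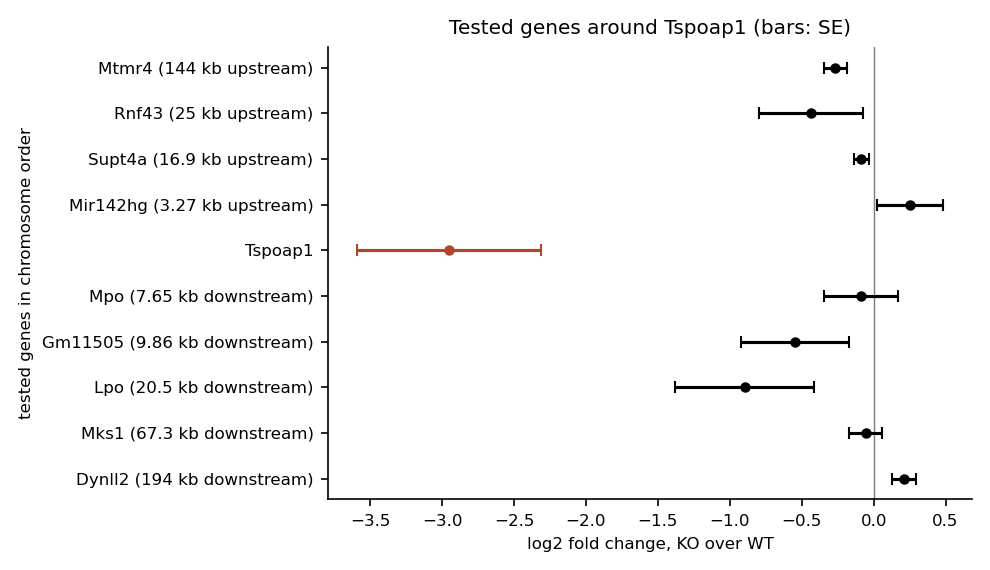
Log2 fold change, KO over WT, with SE bars, of Tspoap1 and the 9 tested genes within 250 kb of it, in chromosome order from top to bottom with the distance from Tspoap1. The neighbours lie between -0.90 (Lpo) and 0.25 (Mir142hg), and Tspoap1 at -2.95.

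Exons of 2 members overlap a gene on the other strand. Mcat, a mitochondrial fatty acid synthesis enzyme, overlaps Tspo and was at 36.0 ± 1.69 CPM in KO clones and 39.4 ± 4.94 CPM in WT clones, with an adjusted p of 0.398 by edgeR. Comtd1, a predicted methyltransferase, overlaps Vdac2 and was at 12.3 ± 0.932 CPM in KO clones and 9.96 ± 0.927 CPM in WT clones, with a log2 fold change of 0.30 ± 0.09 and an adjusted p of 0.0703. Reads in these overlaps cannot be told apart by strand.

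Around all 7 members together, 107 neighbouring genes were in the counts and 46 were tested, of which 2 were called higher and 2 lower in KO clones, with a median log2 fold change of 0.02 against -0.01 over all genes. Of all tested genes 5.05% were called, and nothing is read from the neighbours' count. Parp1, the poly(ADP-ribose) polymerase near Acbd3, averaged 477 ± 14.7 CPM in KO clones and 551 ± 12.3 CPM in WT clones (log2 fold change -0.21 ± 0.03, edgeR adjusted p = 0.00377). Ttll12, beside Tspo, fell by 0.29 ± 0.07 on the log2 scale (edgeR adjusted p = 0.0329). Samd8, a sphingolipid enzyme near Vdac2, was higher by 0.33 ± 0.07 on that scale (edgeR adjusted p = 0.0247). Pgap3, which remodels GPI anchors and lies 7.57 kb from Stard3, was higher by 0.35 ± 0.09 (edgeR adjusted p = 0.0481), a call lost whichever clone was left out. Those of Ttll12 and Samd8 were each lost in 7 of the 11 fits without 1 clone. For the other members, the nearest gene in the counts on each side was taken. Of these, 9530068E07Rik beside Vdac1, Slc20a2 beside Vdac3 and H3f3a beside Acbd3 were tested. They had log2 fold changes of 0.03, 0.09 and -0.06 and were not called.

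Genes of cholesterol and acyl-CoA delivery, the route on which TSPO, ACBD3 and STARD3 are placed, formed the first of 4 gene lists. The lists were chosen with earlier results of these data known, so their calls are given as a description. Of 30 listed genes in the counts 27 were tested, and 2 were called higher and 2 lower in KO clones, beside 5.05% of all tested genes called, with a median log2 fold change of 0.06. Dbi, the acyl-CoA-binding protein that is a natural ligand of TSPO, had 98.8, 89.3, 109, 104 and 109 CPM in KO 3H, 3I, 4J, 4K and 4L, and 126 to 143 CPM, with a median of 135, in WT clones. All KO clones were below all WT clones, and its log2 fold change was -0.41 ± 0.06 (SE, edgeR adjusted p = 0.00371). Stard4, a soluble sterol carrier of the STARD3 family, had 121, 162, 123, 143 and 139 CPM in the KO clones in that order, and 187 to 251 CPM, with a median of 202, in WT clones. Its groups did not overlap either, and the log2 fold change was -0.61 ± 0.09 (edgeR adjusted p = 0.00644). Soat2, which esterifies cholesterol for storage, had 15.2, 12.99, 12.2, 10.4 and 17.97 CPM in the KO clones and 3.86 to 8.55 CPM, with a median of 6.25, in WT clones. Here too the groups did not overlap, with KO clones above, and the log2 fold change was 1.18 ± 0.21 (edgeR adjusted p = 0.0129). Dbi, Stard4 and Soat2 were named for their small adjusted p, and 5.99% of all tested genes had no overlap between genotypes. Osbpl2, an oxysterol-binding-protein relative, rose by 0.13 ± 0.03 on the log2 scale (edgeR adjusted p = 0.0376). Dbi, Stard4, Soat2 and, among the neighbours, Parp1 stayed under the threshold in all 11 fits that each left out 1 clone. Osbpl2 did so in 1 of the 11. Leaving out a whole clone number, which leaves fewer clones, cost more calls. Without number 1, 0 genes of this list and 0 neighbours were called, so the calls of Dbi, Stard4, Soat2 and Parp1 were all lost. Without number 4, 1 gene of this list and 0 neighbours were called. Ywhae, the gene of the list with the most counts, was at -0.10 ± 0.04 on that scale (edgeR adjusted p = 0.202).

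Other proteins of the outer mitochondrial membrane formed a list of 56 genes in the counts, of which 51 were tested, 1 was called higher and 2 lower, with a median log2 fold change of -0.03. Atad1, which pulls misplaced proteins out of the membrane, averaged 195 ± 8.43 CPM in KO clones and 174 ± 5.51 CPM in WT clones (log2 fold change 0.17 ± 0.04, edgeR adjusted p = 0.0286). Bnip3, a mitophagy receptor, averaged 12.3 ± 1.23 CPM in KO clones and 17.9 ± 3.31 CPM in WT clones (log2 fold change -0.54 ± 0.13, edgeR adjusted p = 0.0374). Tomm7, a small subunit of the import pore, fell by 0.18 ± 0.04 on the log2 scale (edgeR adjusted p = 0.0424). The share called, 3 of 51 genes, was close to that of all genes. Tomm70a, an import receptor and the gene of this list with the most counts, was at -0.06 ± 0.08 as a log2 fold change (edgeR adjusted p = 0.731). The calls of Atad1, Bnip3 and Tomm7 were each lost in 7 or more of the 11 fits without 1 clone.

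Proteins that bind VDAC or work beside it, such as hexokinases, adenine nucleotide carriers, inositol trisphosphate receptors and BCL2 relatives, numbered 29 in the counts, 25 of them tested, with a median log2 fold change of 0.00. Hspa9, the chaperone that links VDAC to the endoplasmic reticulum and also folds proteins in the matrix, was the 1 gene called, averaging 1269 ± 98.0 CPM in KO clones and 995 ± 109 CPM in WT clones (log2 fold change 0.35 ± 0.08, edgeR adjusted p = 0.0311). That call, 1 of 25 tested genes beside 5.05% of all tested genes, was lost in 8 of the 11 fits without 1 clone. Tubb5, the gene of the list with the most counts, had a log2 fold change of 0.00 ± 0.03. Structural relatives of the members, 28 genes of the START, acyl-CoA-binding and RIM-binding families and of ACBD3 partners, gave 19 tested genes and 0 calls by edgeR, DESeq2 or limma-voom, with 3 by edgeR at an unadjusted p under 0.05 and a median of 0.01. Stard7, which carries phosphatidylcholine to mitochondria and had the most counts of them, averaged 236 ± 7.55 CPM in KO clones and 247 ± 11.1 CPM in WT clones (edgeR adjusted p = 0.357).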

How the data were processed

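Poly(A)-selected, strand-specific libraries of 11 clones (5 KO, 6 WT) were analysed. The authors deposited raw read counts per Ensembl gene for each clone; per the submitters' processing notes, STAR, HTSeq and edgeR were used with the build mm9. A mark in the deposited files says that strand was ignored, and the files' own tallies keep reads of several alignments out of gene counts. Symbols were matched by ID to GENCODE M21 (GRCm38) for 32860 of 37583 IDs (87.4%), and gene order, distance and sequence come from that build. Tallies that name no gene were left out of library sizes; reads in no gene were 6.59 ± 0.411% in KO and 6.07 ± 0.551% in WT clones. Clones of a genotype all differed by more than counting error (chi-square per gene of at least 14.2).

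KO was compared with WT by edgeR's robust quasi-likelihood test (TMM, filterByExpr, Benjamini-Hochberg over 11900 genes, called at an adjusted p under 0.05), and clone numbers in a model of 4 means. CPM use TMM-scaled library sizes, log2 CPM a prior count of 2, and each SE is worked back from the fold change and its F statistic. The fits were tested on simulated data. Members and gene lists were chosen with earlier results of these data known. Named genes are the members, Taz, up to 4 called genes of smallest adjusted p and the gene of most counts of each list and of the neighbours, genes that overlap or adjoin a member, and the 5 most alike in clone pattern; Mtmr4, Lpo, Epx, Prg2, Cpa3, Cd79b, Cxcr2 and Mmp8 were added after their values were seen. Alternatives were RLE scaling, no filter, a stricter filter (1 CPM), DESeq2, limma-voom, a non-robust fit, clone number as a random block, and leaving out each clone or number. Tomm20 was not matched. Software comprised DESeq2 1.42.0, limma 3.58.1 and edgeR 4.0.16 under R 4.3.3, and pandas 2.3.3, matplotlib 3.10.9 and numpy 2.4.6 under Python 3.11.15.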

Additional observations from a re-analysis of the deposited data

Results flagged for a closer look

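Among 102 sets of clone values examined, 3 held a clone far from the rest of its group, and chance alone would mark about 1 in 20. Tspoap1 in KO clones was highest in 4J, at 35.8 CPM, with the next KO clone at 29.5 CPM. The summed late neutrophil markers in WT clones were highest in 2D, at 1546 CPM, with the next WT clone at 116 CPM. The summed VDAC signal in KO clones was lowest in 4K, at 797 CPM, with the next KO clone at 841 CPM.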

How the results depend on the processing

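No paired analysis was possible because KO and WT clones share no replicate number. The members' KO and WT log2 fold changes kept their direction in every alternative except Acbd3, which ranged from -0.049 to 0.0035 when single clones were left out and was 0.040 without number 4; that of Tspoap1 ranged from -3.16 to -2.21 on leaving out 1 clone and was -1.72 without WT 1A and 2D. Tspoap1 was over the threshold without WT 1A or any 1 KO clone, with no filter, with limma-voom and without number 1, 3 or 4. Vdac3 was over it without any 1 clone other than WT 2D and KO 4K, with no filter and without any number. Genes called over all were 601, against 329 with no filter, 1261 with DESeq2, 1983 with the number as a random block, 45, 296, 92 and 32 without numbers 1, 2, 3 and 4, and 240 to 739 without 1 clone; the cause was not tested, though leaving out clones leaves fewer samples. The number contrasts gave 0 calls, 12 (WT) and 6 (KO) with DESeq2 and 0 to 1 without 1 clone. Outer membrane genes called were 3, against 0 with no filter and without number 1, 2, 3 or 4, 7 with DESeq2, 9 with the random block and 0 to 3 without 1 clone. VDAC partners called were 1, against 5 with DESeq2, 4 with the random block, 4 without WT 1A and 2D, 0 without number 1, 3 or 4 and 0 to 3 without 1 clone. Cholesterol delivery genes called were 4, against 0, 2 and 1 without numbers 1, 3 and 4 and 3 to 5 without 1 clone. Relatives called were 0, against 4 with the random block, 1 without WT 1A and 2D and 0 to 1 without 1 clone. Neighbours called were 4, against 2 with no filter, 8 with DESeq2, 12 with the random block, 7 without WT 1A and 2D, 0, 2, 1 and 0 without numbers 1, 2, 3 and 4, and 1 to 6 without 1 clone.

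Among single values, Mir142hg turned to -0.028 without number 2, Mpo to 0.076 and Tomm70a to 0.036 without WT 1A and 2D, and Tubb5 to -0.0038 with no filter, -0.0013 without WT 1A and 2D, -0.024 without number 1 and -0.0021 without number 3. Without 1 clone, Mpo ranged from -0.21 to 0.058 and Tubb5 from -0.013 to 0.011. In the contrast of WT numbers, Tspoap1 ranged from -1.05 to 1.35, Tspo from -0.023 to 0.082 and Stard3 from -0.00011 to 0.11. In that of KO numbers, Tspoap1 ranged from -0.11 to 0.11, Vdac1 from -0.059 to 0.0088 and Vdac2 from -0.048 to 0.035.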
